A study of Mus musculus with 8 samples.

Results

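The genes described are 46 members of the machinery, mostly of the Golgi, that builds, lengthens and caps glycans, of 55357 genes in the deposited table. They were chosen by name and function, not by a measured value. Most are galactosyl-, N-acetylglucosaminyl-, sialyl- and fucosyltransferases, with the transporters that bring them their nucleotide sugars. RNA was measured in germ cell preparations from testes of male C57BL/6 mice at 15 days after birth. The control group was 4 *Mgat2*[F/F] mice and the other group was 4 *Mgat2*[F/F]:*Stra8*-iCre mice, called *Mgat2* cKO, with 1 library per mouse. Both groups therefore carry floxed *Mgat2*, and the cKO mice carry in addition a Cre transgene whose *Stra8* promoter is active in spermatogonia. The germ cells were obtained by enzymatic digestion of the tubules, and the libraries were made from polyadenylated RNA without strand information.

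MGAT2 is the Golgi enzyme that adds the N-acetylglucosamine with which the second arm of an N-glycan can be built into a complex chain. Downstream of it, galactose is added by the B4GALT enzymes, chains of alternating galactose and N-acetylglucosamine (poly-N-acetyllactosamine) are extended by the B3GNT enzymes, and the ends are closed with sialic acid or fucose. The comparison therefore addresses whether the transcripts of these later enzymes differ in level when *Mgat2* is deleted in germ cells, and which of the enzymes of each step are transcribed in them at this age.

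Total expected counts ran from 12584726 to 15907505 per library. Values of a single gene are given as CPM, the expected counts scaled to a common library size with TMM normalization. In the targeted gene, *Mgat2*, CPM were 69.8, 31.8, 64.3 and 59.8 in controls 1 to 4 and 35.3, 20.1, 37.6 and 16.03 in cKO 1 to 4. The genotypes overlapped, since control 2 lay below cKO 1 and cKO 3, and the log2 fold change of cKO over control was −1.05 (SE 0.36, adjusted p = 0.47 by edgeR). The 10 Sertoli cell markers examined summed to between 6317 and 7844 TPM in controls and between 6668 and 7858 TPM in cKO, and the 6 general germ cell markers to between 1630 and 1982 TPM in controls and between 1527 and 1656 TPM in cKO. TPM, as RSEM gives them, are levels per unit of transcript length and can be compared between genes. The libraries thus held transcripts of Sertoli cells, the somatic cells of the tubule, beside those of germ cells, and the cell that gave a transcript cannot be told apart in them. The 10 pachytene spermatocyte markers summed to between 1206 and 3604 TPM in controls and between 677 and 1284 TPM in cKO, which overlapped. Of the 10, 5 were lower in cKO at an unadjusted p under 0.05 by edgeR, where the share over all genes tested was 6.28%. In 2 of the 10, every cKO library was below every control library, a pattern found in 3.03% of all genes tested. In bulk samples, fewer cells of a type and less RNA per cell cannot be told apart.

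Of the 46 genes, 40 reached 1 TPM in 1 or more of the libraries and were tested among 20187 genes. With edgeR's quasi-likelihood test, 0 of the 40 passed an adjusted p of 0.05, against 8 of all genes tested (0.0396%). With DESeq2, *Abo* passed, against 304 of 15453 genes (1.97%), of which 286 were lower in cKO (1.85%), and *St8sia3* received no adjusted p. At an unadjusted p under 0.05, 2 of the 40 were lower in cKO (*Abo* and *B3gnt4*), where the share over all genes was 6.28%, and 3 were higher (*B3galt6*, *Fut10* and *Fut11*), where it was 2.62%. In 1 gene, *Abo*, every cKO library was below every control library, a pattern found in 3.03% of all genes. In *Fut10* and *Fut11* every cKO library was above every control library, found in 2.47% of all genes. In the other 37 genes the genotypes overlapped.

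The median log2 fold change of the 40 genes was 0.07, with 25 above 0 and 15 below 0. Over all genes tested the median was 0.01 and 51.3% were above 0. The median size of the change, regardless of sign, was 0.12 in the 40 genes and 0.17 in all genes. The median SE was also smaller, 0.13 in the 40 genes and 0.21 in all genes, so these sizes were measured with unlike precision. In 27 of the 40, the 95% interval of the fold change lay within a 1.5-fold difference in either direction, and in 34 within a 2-fold difference. The shares of all genes within these bounds were not computed. Of all 46 genes, 12 share over 10% of their exonic bases with another annotated gene, and in libraries without strand information reads there are split by estimate.

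**Figure D1:**
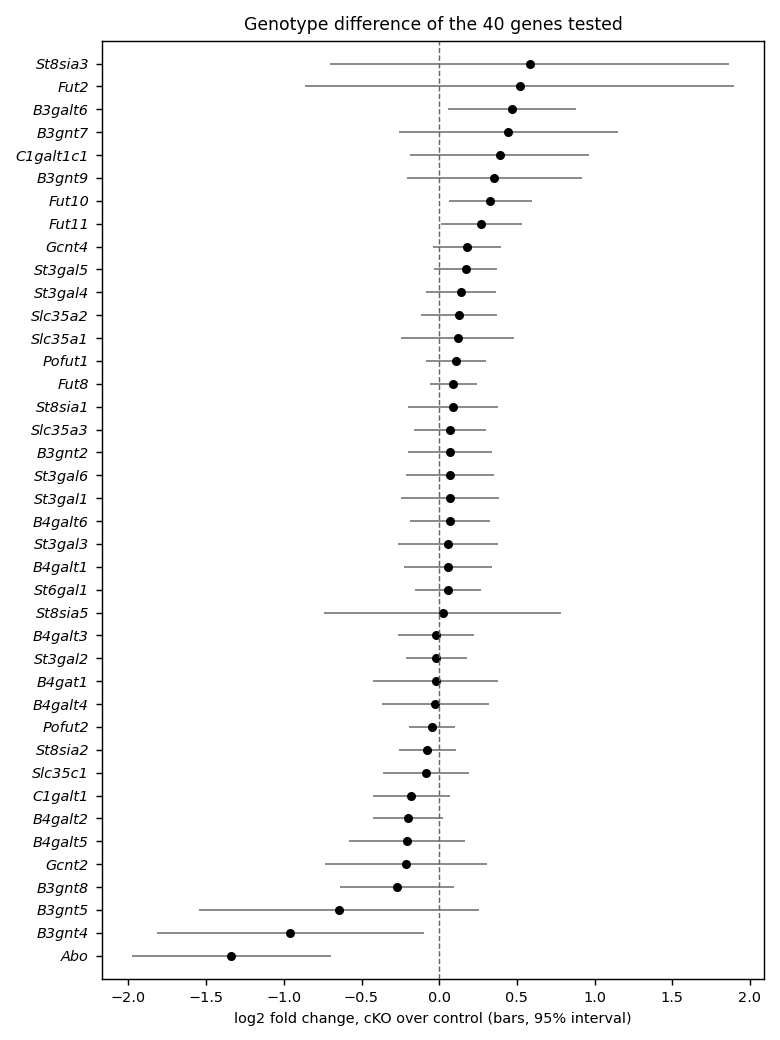
Log2 fold change of cKO over control (horizontal axis) for the 40 genes tested, ordered by size, with points for the edgeR estimate and bars for the 95% interval over 4 libraries per genotype. *Abo* lies farthest from 0 at −1.34, and 28 of the 40 points are within 0.25 of 0.

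The genes differed widely in abundance. The mean over the 8 libraries was at least 1 TPM for 37 of the 46 genes, at least 10 TPM for 21 and at least 50 TPM for 6. The median of the 40 genes tested was 10.38 TPM, beside 9.34 TPM for all genes tested. The 6 genes above 50 TPM were *St3gal5*, *St3gal4*, *Pofut2*, *B4galt3*, *Fut8* and *St3gal2*. Each belongs to a sialylation, fucosylation or galactosylation step, and none encodes a B3GNT enzyme.

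**Figure D2:**
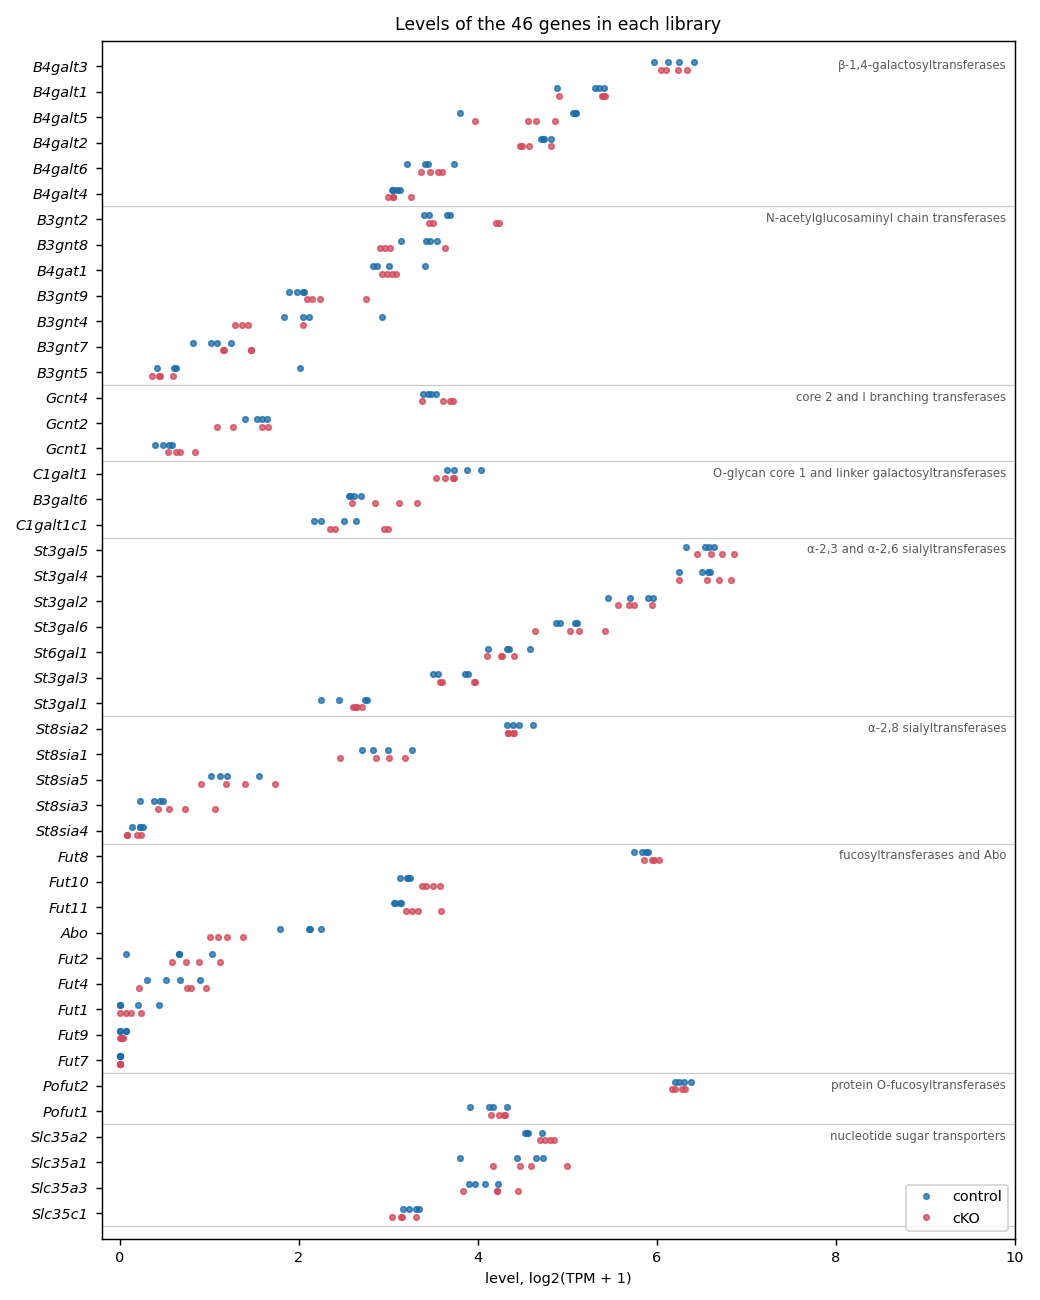
Level of each of the 46 genes in each library as log2(TPM + 1), with 1 point per library, controls in blue and cKO in red, grouped by role and ordered by mean level within a role. The genotypes are interleaved in most rows, and the sialyltransferases *St3gal5* and *St3gal4* reach the highest levels at a mean of 95.8 and 92.2 TPM.

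The bases before the transcript start are shown for 3 genes, *Abo* and *Fut10* because their genotypes did not overlap and *B4galt1* because it is the galactosyltransferase best known for lactosamine synthesis and because its first library lay below the other 3 in both genotypes. Each sequence is the 250 bases before the start of the canonical transcript, read on the gene's strand from GRCm39, with CpG dinucleotides in capitals. They lie at chr2:26754992-26755241 (minus strand) for *Abo*, chr8:31676966-31677215 (plus strand) for *Fut10* and chr4:40854047-40854296 (minus strand) for *B4galt1*, and none of the 3 holds a base of an annotated exon.
Abo: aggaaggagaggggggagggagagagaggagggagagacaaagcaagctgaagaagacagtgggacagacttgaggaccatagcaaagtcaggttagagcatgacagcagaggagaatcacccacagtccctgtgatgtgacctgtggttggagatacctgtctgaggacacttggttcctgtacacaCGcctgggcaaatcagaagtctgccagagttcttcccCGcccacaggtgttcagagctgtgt
Fut10: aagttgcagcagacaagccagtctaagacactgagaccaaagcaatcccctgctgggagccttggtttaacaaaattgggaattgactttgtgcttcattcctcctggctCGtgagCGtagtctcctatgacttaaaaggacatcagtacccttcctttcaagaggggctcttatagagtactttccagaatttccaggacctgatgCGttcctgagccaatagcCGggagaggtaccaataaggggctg
B4galt1: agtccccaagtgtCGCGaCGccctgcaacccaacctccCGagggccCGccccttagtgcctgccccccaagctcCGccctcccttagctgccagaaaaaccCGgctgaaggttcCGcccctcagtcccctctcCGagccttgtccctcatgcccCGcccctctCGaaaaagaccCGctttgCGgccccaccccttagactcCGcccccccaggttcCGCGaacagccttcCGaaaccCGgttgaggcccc
The *Abo* window holds 2 CpGs, and 16.5% of the 21757 protein-coding promoters read in the same way hold fewer. The *Fut10* window holds 4 CpGs and the *B4galt1* window 18, with 30.6% and 79.7% of promoters holding fewer. The letters GGGCGG, the core of the motif bound by SP1-family factors, occur on either strand in the windows of *Abo* and *B4galt1* and not in that of *Fut10*, which holds CCAAT instead. These are descriptions of the letters, and nothing in the data measures a factor at them.

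The 6 beta-1,4-galactosyltransferases add the galactose on which lactosamine chains, and the sialic acid and fucose at their ends, depend. *B4galt3* was the most abundant of them at 72.0 TPM (range 61.5 to 84.4 over the 8 libraries), and its range did not meet that of *B4galt1*, at 37.7 TPM (28.6 to 41.8). *B4galt5* at 25.1 TPM and *B4galt2* at 24.6 TPM overlapped with each other, and *B4galt5* also with *B4galt1*. *B4galt6* at 10.2 TPM overlapped with *B4galt4* at 7.501 TPM. *B4galt3* made up 39.97% ± 2.24 (SD, n = 4) of the summed TPM of the 6 genes in controls and 41.3% ± 1.75 (n = 4) in cKO. *B4galt5* and *B4galt6*, the lactosylceramide synthases of glycolipids, were thus transcribed beside the enzymes that act on glycoproteins.

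*B4galt1* (chr4:40804602-40854046, minus strand) has CPM of 69.8, 93.4, 92.3 and 95.3 in controls 1 to 4 and 70.6, 99.7, 99.1 and 95.6 in cKO 1 to 4. The first library of each genotype was low and the other 6 lay within a narrow band, and the log2 fold change was 0.06 (95% interval −0.22 to 0.34, edgeR adjusted p = 0.93). *B4galt3* had 53.0, 68.3, 71.2 and 74.3 CPM in controls and 58.9, 72.1, 62.5 and 69.9 CPM in cKO, again with the first library lowest in both genotypes. Its log2 fold change was −0.02 (95% interval −0.26 to 0.23), but 57.2% of its exonic bases also lie in exons of *Ppox* on the opposite strand, so reads there cannot be assigned by strand. The other 4 genes had log2 fold changes from −0.21 (*B4galt5*) to 0.07 (*B4galt6*), and none of the 6 was under an unadjusted p of 0.05.

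The *B3gnt* genes and *B4gat1*, 7 in all, were less abundant, and each level overlapped with the next except between *B4gat1* and *B3gnt9*. *B3gnt2*, the main enzyme that extends lactosamine chains, was highest at 12.3 TPM (9.55 to 17.8), followed by *B3gnt8*, its partner on branched N-glycans, at 8.76 TPM (6.51 to 11.4) and by *B4gat1* at 7.17 TPM, which acts on the laminin-binding glycan of dystroglycan. The exons of *B4gat1* lie for 83.8% in *Gm50388* on the same strand, so its level is uncertain. *B3gnt9*, *B3gnt4*, *B3gnt7* and *B3gnt5* ranged from 3.52 down to 0.75 TPM. *B3gnt7* is known for keratan sulfate and *B3gnt5* for lacto-series glycolipids. *B3gnt5* exceeded 1 TPM in a single library, control 2, where it reached 3.05 TPM against 0.29 to 0.55 TPM elsewhere, so it entered the test through that library alone.

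*B3gnt2* (chr11:22709738-22823241, minus strand) had 14.7, 17.4, 19.3 and 18.6 CPM in controls and 18.9, 17.6, 18.9 and 18.2 CPM in cKO. All 4 cKO libraries lay inside the range of the controls, and the log2 fold change was 0.07 (95% interval −0.20 to 0.34, edgeR adjusted p = 0.90). Of its exonic bases 35.2% are shared with *Commd1b* on the same strand, 1 of the 3 genes that overlap it. The level and the fold change of *B3gnt2* carry that uncertainty. *B3gnt8* had 14.0, 12.9, 10.9 and 15.1 CPM in controls and 9.36, 11.1, 13.6 and 9.79 CPM in cKO, with a log2 fold change of −0.27 (95% interval −0.64 to 0.10). The libraries of the 2 genotypes overlapped, and 36.5% of its exonic bases are shared with *Bckdha* on the opposite strand.

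*B3gnt4* (chr5:123648523-123649945, plus strand), whose product can start lactosamine chains, had CPM of 4.89, 1.82, 2.27 and 2.34 in controls 1 to 4 and 2.32, 1.23, 1.19 and 1.06 in cKO 1 to 4. The first library was the highest of each genotype, and cKO 1 lay among controls 2 to 4, so the genotypes overlapped. The log2 fold change was −0.96 (SE 0.39, edgeR adjusted p = 0.52) and ran from −1.28 to −0.55 as single libraries were left out. These CPM stand for 28 to 72 expected counts in controls and 15 to 35 in cKO. All 1423 bases of its single exon lie inside exons of *Gm49027* on the opposite strand, which had 19 to 56 counts in controls and 13 to 22 in cKO, so that in unstranded libraries the split between the 2 genes is uncertain.

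Of the 3 branching enzymes, *Gcnt4*, which makes core 2 O-glycans, held 81.1% ± 0.89 of the summed TPM in controls and 83.3% ± 2.05 in cKO (SD, n = 4 each). Its mean was 10.6 TPM (9.40 to 12.2). *Gcnt2*, the I-branching enzyme of lactosamine chains, was at 1.79 TPM (1.13 to 2.16), and *Gcnt1*, the best known core 2 enzyme, at 0.51 TPM (0.32 to 0.79), which kept it out of the test. The 3 ranges were apart from each other. *Gcnt4* had 30.1, 32.2, 31.5 and 29.4 CPM in controls and 29.9, 37.9, 35.1 and 36.3 CPM in cKO. With cKO 1 among the controls, its log2 fold change was 0.18 (95% interval −0.04 to 0.40, edgeR adjusted p = 0.63). *Gcnt2* had a log2 fold change of −0.21 (95% interval −0.73 to 0.31).

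*C1galt1*, the enzyme that makes core 1 O-glycans, was at 12.4 TPM (10.6 to 15.4), above *B3galt6* at 6.05 TPM (4.92 to 8.99) and *C1galt1c1*, the chaperone Cosmc on which C1GALT1 depends, at 4.91 TPM. *C1galt1* had 59.4, 42.7, 51.6 and 44.6 CPM in controls and 40.8, 46.1, 46.4 and 41.9 CPM in cKO, which overlapped, with a log2 fold change of −0.18 (95% interval −0.43 to 0.07). *C1galt1c1* had a log2 fold change of 0.39 with an interval that also spans 0.

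*B3galt6* (chr4:156073923-156077106, minus strand) builds the linker on which glycosaminoglycans are assembled. Its CPM were 9.84, 9.98, 9.23 and 8.90 in controls 1 to 4 and 17.2, 9.45, 14.5 and 11.4 in cKO 1 to 4. cKO 1, 3 and 4 lay above all controls and cKO 2 among them, and the spread within cKO (SD 3.42) exceeded that within controls (SD 0.51). The log2 fold change was 0.47 (SE 0.19, edgeR adjusted p = 0.51), and 16.3% of its exonic bases are shared with *Sdf4* on the opposite strand. *Sdf4* had 192 to 203 CPM in controls and 204 to 231 CPM in cKO, so its genotypes were also apart in the same direction, and its part in the value of *B3galt6* was not tested. In the summed TPM of these 3 genes, the share of *C1galt1* was 54.9% to 61.3% in controls and 44.8% to 52.0% in cKO. Of the 9 roles, only this had a share of the leading gene that did not overlap between genotypes, and it is given without a test.

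The alpha-2,3 and alpha-2,6 sialyltransferases, which close chains with sialic acid, were the most abundant role, with a summed level of 300.2 ± 22.9 TPM in controls and 318 ± 35.0 TPM in cKO (SD, n = 4 each). *St3gal5*, the GM3 synthase that opens ganglioside synthesis, was at 95.8 TPM (78.9 to 115) and *St3gal4*, which acts on lactosamine ends, at 92.2 TPM (75.2 to 113), and these 2 overlapped. Below them the order was *St3gal2* at 52.9 TPM, *St3gal6* at 31.9 TPM, *St6gal1* at 18.8 TPM, *St3gal3* at 12.5 TPM and *St3gal1* at 5.09 TPM, each apart from the next over the 8 libraries. *St6gal1*, the alpha-2,6 enzyme for lactosamine, was thus below 4 of the 6 alpha-2,3 enzymes. Of the exonic bases of *St3gal6*, 44.1% are shared with *Dcbld2* on the opposite strand. For *St3gal4*, 24.2% are shared with *4930581F22Rik*, also on the opposite strand, so the levels of both genes carry that uncertainty.

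*St3gal5* had 103, 114, 118 and 122 CPM in controls and 110, 147, 125 and 132 CPM in cKO, with cKO 1 among the controls. Its log2 fold change was 0.17 (95% interval −0.03 to 0.37, edgeR adjusted p = 0.62). *St3gal4* had 87.1, 109, 92.3 and 105.2 CPM in controls and 89.4, 118, 109 and 117 CPM in cKO, with a log2 fold change of 0.14 (95% interval −0.08 to 0.36). In both genes the first library was the lowest of its genotype, and the genotypes overlapped. Across the 7 genes the log2 fold changes ran from −0.02 to 0.17, and none was under an unadjusted p of 0.05.

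Among the alpha-2,8 sialyltransferases, which link sialic acid to sialic acid, *St8sia2* stood above the rest at 20.3 TPM (19.0 to 23.6). It is one of the polysialic acid synthases, and the other, *St8sia4*, was at 0.14 TPM and was not tested. *St8sia1*, the GD3 synthase, was at 6.65 TPM, *St8sia5* at 1.45 TPM and *St8sia3* at 0.48 TPM. *St8sia1* was apart from the genes on either side of it, while the range of *St8sia3* overlapped with those of *St8sia5* and *St8sia4*. *St8sia2* had 69.4, 74.8, 61.8 and 62.2 CPM in controls and 64.5, 62.1, 64.9 and 63.1 CPM in cKO. All 4 cKO libraries lay within the range of the controls, with a log2 fold change of −0.08 (95% interval −0.26 to 0.11, edgeR adjusted p = 0.81). *St8sia1* had a log2 fold change of 0.09 (95% interval −0.20 to 0.38), but in TPM its mean was lower in cKO. *St8sia3* passed the level filter in a single library, cKO 4 at 1.10 TPM.

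The fucosyltransferases were dominated by *Fut8*, the enzyme of core fucose on N-glycans, which held 73.5% ± 1.504 of the summed TPM of this role in controls and 73.3% ± 2.05 in cKO (SD, n = 4 each). Its mean was 58.4 TPM (52.4 to 63.8), apart from *Fut10* at 9.15 TPM (7.75 to 11.0) and *Fut11* at 8.41 TPM (7.34 to 11.0), which overlapped with each other. *Abo* followed at 2.24 TPM (1.02 to 3.75). The enzymes that put fucose on the ends of chains were scarce. *Fut2*, which makes the H antigen, was at 0.68 TPM, and *Fut4*, *Fut1* and *Fut9*, of the Lewis and H antigens, were at 0.58, 0.10 and 0.02 TPM. *Fut7*, which makes sialyl Lewis x on leukocytes, had 0 counts in all 8 libraries, which allows up to 0.189 to 0.238 CPM per library by the limit of 3 counts.

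*Fut8* had 98.6, 89.3, 95.9 and 94.6 CPM in controls and 101, 98.6, 107 and 95.9 CPM in cKO. The genotypes overlapped, with a log2 fold change of 0.09 (95% interval −0.06 to 0.24, edgeR adjusted p = 0.71). The summed level of the 9 genes of this role was 73.5 to 78.4 TPM in controls and 79.8 to 85.5 TPM in cKO, which did not overlap, and *Fut8* is the larger part of that sum. This was 1 of the 9 roles, and in the other 8 the summed levels of the genotypes overlapped.

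*Fut10* (chr8:31677216-31757307, plus strand) has the sequence family of alpha-1,3-fucosyltransferases. Its CPM were 13.2, 12.8, 14.6 and 13.6 in controls 1 to 4 and 16.4, 16.2, 16.8 and 18.6 in cKO 1 to 4. Every cKO library exceeded every control, the log2 fold change was 0.33 (SE 0.12, edgeR adjusted p = 0.46), and it stayed between 0.28 and 0.37 as single libraries were left out. *Fut11* (chr14:20744972-20751327, plus strand), of the same family, had 18.7, 17.8, 18.1 and 16.6 CPM in controls and 22.5, 24.4, 19.5 and 19.4 CPM in cKO. Here too the genotypes were apart, by a smaller gap between control 1 and cKO 4, with a log2 fold change of 0.27 (SE 0.12, edgeR adjusted p = 0.54). Neither gene shares exonic bases with another gene.

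*Abo* (chr2:26729935-26754991, minus strand), the transferase that adds the last sugar of the A and B blood group antigens to the H antigen, had expected counts of 48, 54, 51 and 29 in controls 1 to 4 and 19, 15, 22 and 15 in cKO 1 to 4. As CPM these were 3.26, 3.50, 3.22 and 2.26 in controls and 1.26, 0.97, 1.54 and 1.06 in cKO. All 4 cKO libraries were below the lowest control, control 4. The mean was 3.06 ± 0.55 CPM in controls and 1.21 ± 0.25 CPM in cKO (SD, n = 4 each), a log2 fold change of −1.34 (SE 0.29, 95% interval −1.98 to −0.70). Its edgeR adjusted p was 0.23, from an unadjusted p of 0.00065, and its DESeq2 adjusted p was 0.0098. No exon of another gene overlaps it. Its acceptor, the H antigen, is made by the products of *Fut1* and *Fut2*, which were among the genes of lowest level. The pachytene markers given above had a median log2 fold change of −1.33, in the same direction, and their part in the value of *Abo* was not tested.

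**Figure D3:**
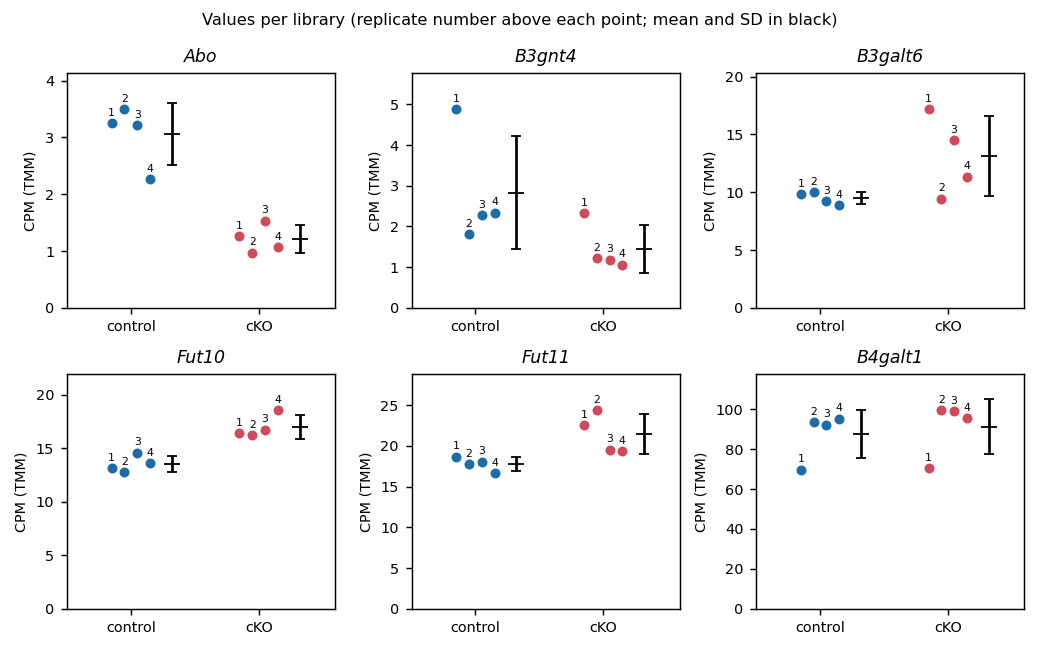
TMM-normalized CPM (vertical axes from 0) in each library of the 5 genes with an unadjusted p under 0.05 and of *B4galt1*, with the replicate number above each point and the mean and SD of 4 libraries in black. The genotypes are apart in *Abo*, *Fut10* and *Fut11*, and in *B4galt1* the libraries control 1 and cKO 1 lie near 70 CPM, below the other 6.

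The protein O-fucosyltransferases act on folded domains in the endoplasmic reticulum. *Pofut2*, which modifies thrombospondin repeats, was at 75.8 TPM (71.2 to 82.3), apart from *Pofut1*, which modifies Notch and other proteins with EGF repeats, at 17.3 TPM (14.1 to 19.1). *Pofut2* had 94.7, 95.9, 92.1 and 99.9 CPM in controls and 89.9, 97.8, 94.9 and 87.4 CPM in cKO. *Pofut1* had 45.2, 49.9, 48.7 and 56.5 CPM in controls and 51.3, 53.7, 54.4 and 56.5 CPM in cKO. The genotypes overlapped in both, with log2 fold changes of −0.05 (95% interval −0.20 to 0.10) and 0.11 (95% interval −0.09 to 0.30).

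The 4 nucleotide sugar transporters carry donors into the Golgi lumen. *Slc35a2*, for UDP-galactose, was at 24.7 TPM, *Slc35a1*, for CMP-sialic acid, at 21.9 TPM and *Slc35a3*, for UDP-N-acetylglucosamine, at 16.4 TPM, with overlapping ranges. *Slc35c1*, for GDP-fucose, was lower at 8.27 TPM (7.21 to 9.13) and apart from them. *Slc35a2* had 18.5, 20.6, 23.1 and 21.9 CPM in controls and 20.9, 23.4, 23.7 and 24.0 CPM in cKO. *Slc35a1* had 14.9, 21.8, 21.0 and 22.1 CPM in controls and 16.3, 22.3, 25.6 and 22.4 CPM in cKO. The first library was again the lowest of each genotype in both, and the log2 fold changes were 0.13 (95% interval −0.12 to 0.37) and 0.12 (95% interval −0.24 to 0.48).

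The libraries numbered 1 were the extreme ones of their genotype in both genotypes in 17 of the 40 genes, near the share over all genes tested (40.5%). The first library was the lowest of its genotype in both genotypes in 12 of the 40 genes, where this was so in 19.4% of all genes tested, and the highest in both in 5, where it was so in 21.1%. The 12 were *B4galt1*, *B4galt3*, *Gcnt2*, *St3gal4*, *St3gal5*, *St3gal6*, *St8sia1*, *Fut2*, *Pofut1*, *Slc35a1*, *Slc35a2* and *Slc35a3*, and the 5 were *B4galt2*, *B4galt4*, *B4galt5*, *B3gnt4* and *St8sia5*. Control 1 and cKO 1 also had the lowest sum of Sertoli cell markers of their genotype (6317 and 6668 TPM) and the highest sum of pachytene markers (3604 and 1284 TPM), and the part of these in the levels of the 17 genes was not tested. Without both of these libraries, *Abo* had a log2 fold change of −1.34 with an edgeR adjusted p of 0.026, and it was the only one of the 40 to pass, in a fit that called 855 of all genes tested (4.24%). Over all the alternatives tried, its log2 fold change ran from −1.47 to −0.90 and its adjusted p from 0.0071 to 0.64.

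**Figure D4:**
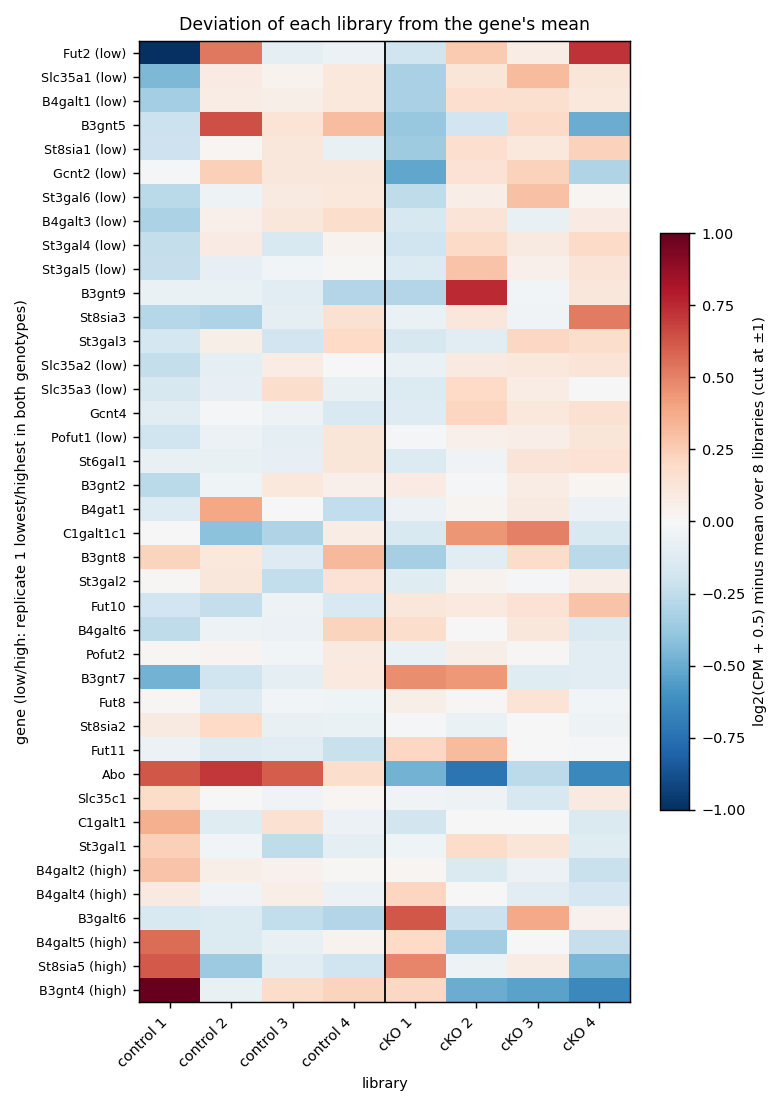
Deviation of each library (columns) from the mean of the 8 libraries, in log2(CPM + 0.5), for the 40 genes tested (rows), ordered by the mean deviation of control 1 and cKO 1, with red above and blue below the mean and colours saturating at ±1. Genes marked low or high have the first library lowest (12 genes) or highest (5 genes) in both genotypes, and *Abo* is the row in which the genotypes differ most.

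Levels in TPM also depend on the transcript lengths that RSEM assigned in each library. Among 37 of the 46 genes with at least 10 counts in every library, the ratio of TPM to CPM varied by more than 1.5-fold over the 8 libraries in 4, beside 16.9% of all such genes. *B4galt5*, with a 2.50-fold range, was at 12.97 TPM in control 2 and at 33.1, 33.1 and 32.4 TPM in controls 1, 3 and 4, while its CPM in control 2 (26.1) was close to those of controls 3 and 4 (27.2 and 29.4). *B3gnt2* was at 17.8 and 17.4 TPM in cKO 3 and cKO 4 and at 10.35 and 10.0 TPM in cKO 1 and cKO 2, with 17.6 to 18.9 CPM in all 4. The other 2 were *Slc35a1* and *Slc35a3*. For these genes the tests of the counts and the levels in TPM describe different quantities, and the isoforms were not analysed here.

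The abundant genes tended to have more CpGs before their start. The 250 bases upstream held a median of 11.5 CpGs (1 to 39) over the 46 genes, beside 8 over all 21757 promoters. Unlike the windows printed above, many of these lie partly or wholly in annotated exons. Those of *B3galt6*, *B3gnt2*, *Pofut2*, *St3gal3*, *St3gal4* and *St3gal5*, among others, do so for all 250 bases. The medians, rho and motif counts given here include such windows. The median was 15 in the 21 genes with a mean of at least 10 TPM and 9 in the other 25. Spearman's rho between CpG number and mean TPM was 0.37 over the 46 genes, which share the same libraries and differ in base composition, and is given as a description. GGGCGG, on either strand, was found in 25 of the 46 windows (54.3%), beside 36.3% of all promoters, CCAAT in 12 beside 36.5%, and TATAAA in 3 beside 11.9%.

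**Figure D5:**
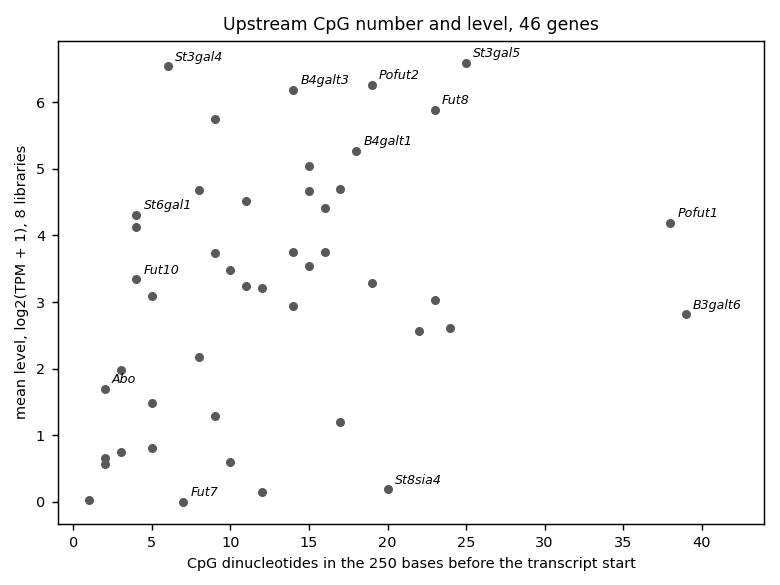
Number of CpG dinucleotides in the 250 bases before the canonical transcript start (horizontal axis) against the mean level over the 8 libraries as log2(TPM + 1), with 1 point for each of the 46 genes. *Abo* (2 CpGs) lies at the lower left and *St3gal5* (25 CpGs) at the upper right, while *St3gal4* reaches a similar level with 6 CpGs.

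Of 82 other genes of the same pathways, 69 were tested. With edgeR, 0 of them passed an adjusted p of 0.05, and *Galm* passed with DESeq2, where 1.97% of all genes did. At an unadjusted p under 0.05, 1 of the 69 was lower in cKO, where the share over all genes was 6.28%, and 5 were higher, where it was 2.62%. None of the 25 tested among the other elongation and capping transferases was under that p. Of the 24 genes of nucleotide sugar synthesis, 1 was lower and 3 were higher, and of the 9 tested among the other transporters and the 11 glycosidases 1 each was higher.

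*Gfpt1*, the enzyme that commits fructose-6-phosphate to UDP-N-acetylglucosamine, had CPM of 221, 149, 177 and 138 in controls and 148, 120, 135 and 113 in cKO. The genotypes overlapped, with a log2 fold change of −0.41 (SE 0.15, edgeR adjusted p = 0.46). *Pgm3*, which acts later in the same route, had 46.5, 48.1, 47.5 and 46.1 CPM in controls and 54.4, 52.7, 56.96 and 51.4 CPM in cKO. All of its cKO libraries were above all controls, with a log2 fold change of 0.20 (SE 0.08, edgeR adjusted p = 0.50). *Galm*, the mutarotase that opens galactose metabolism, had 1.90, 3.05, 3.48 and 3.20 CPM in controls and 6.44, 4.98, 5.58 and 4.68 CPM in cKO. Its genotypes were also apart, with a log2 fold change of 0.90 (SE 0.24, edgeR adjusted p = 0.32, DESeq2 adjusted p = 0.046). *Cmas*, which activates sialic acid to CMP-sialic acid, *Slc35b2*, which carries the sulfate donor, and the fucosidase *Fuca2* had log2 fold changes of 0.18, 0.27 and 0.23, with overlapping genotypes.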

How the data were processed

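Germ cell RNA of 8 mice was sequenced as non-stranded, paired libraries of polyadenylated RNA. Per the submitters' processing notes and the paper's methods, the authors aligned reads to mm39 with STAR 2.7.9a, quantified genes with RSEM 1.3.3 and used DESeq2 1.38.3. The authors deposited RSEM expected counts, which are estimates of reads per gene and are not normalized between libraries. The deposited TPM values are RSEM's levels per transcript length, scaled within each library. Of the expected counts 6.37% were not whole, and all were rounded for the tests. No column was left without a sample (0 unmapped).

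Genes that reached 1 TPM in 1 or more libraries were tested with edgeR 4.0.16 (TMM, robust quasi-likelihood F-test, no covariate, all 8 libraries) in R 4.3.3, p-values being adjusted across the tested genes by Benjamini-Hochberg (threshold 0.05). SE and 95% intervals come from that fit. DESeq2 1.42.0, library totals, DESeq2 size factors in edgeR, no filter, filterByExpr, the replicate number as a block, limma-trend 3.58.1 on log2(TPM + 1) and log2(TPM + 0.1), and leaving out each library were alternatives. Leaving out both libraries numbered 1 was chosen after seeing the data. The procedure was tested on simulated data with large changes in genes of higher counts, which does not cover small changes or low counts. The 3-count limit equals 0.189 to 0.238 CPM and covers counting error only. Each library is a separate mouse, so p-values measure the spread between mice.

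Genes named in full are those under an unadjusted p of 0.05 or with genotypes apart, those called by an alternative, and the 2 most abundant of each role. The members, gene lists and tests were chosen with earlier results of these data known. *St6galnac2* occurs under 2 identifiers in the table, and its first entry was used. *Gm49027*, *Ppox*, *Bckdha*, *Commd1b*, *Gm50388*, *Sdf4*, *Dcbld2* and *4930581F22Rik* are named only as overlapping genes. Positions, exon overlaps and promoter windows come from GENCODE release M39 on GRCm39, in Python 3.11.15.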

Additional observations from a re-analysis of the deposited data

Results flagged for a closer look

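Within each genotype of 4 libraries, a library was set apart when its gap to the nearest other library was too large a part of the whole range by Dixon's 95% critical value. This was so in 6 of the 80 groups tested (40 genes in 2 genotypes), and chance flags about 1 in 20 groups. *B4galt1* was set apart in both genotypes, at 69.79 CPM in control 1 (others 92.3 to 95.3) and 70.63 CPM in cKO 1 (others 95.6 to 99.7). *Slc35a1* was at 14.87 CPM in control 1 (others 21.0 to 22.1). *B4galt2* was at 38.29 CPM in control 1 (others 31.6 to 32.6), and *B3gnt4* at 2.323 CPM in cKO 1 (others 1.06 to 1.23). *St6gal1* was at 48.34 CPM in control 4 (others 42.0 to 42.2), the only one of the 6 that was not a library numbered 1.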

How the results depend on the processing

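Of all genes tested, 8 were called by edgeR. The number was 17 with library totals, 304 with DESeq2, 35 with no TPM filter, 0 with filterByExpr, 0 with limma-trend on log2(TPM + 1), 0 on log2(TPM + 0.1), 855 with both libraries numbered 1 left out, and 0 to 32 as single libraries were left out, each of which moved it by over 1.5 times. Of the 40 genes described, 0 were called by edgeR (5 at an unadjusted p under 0.05), 1 with DESeq2, 1 with both libraries numbered 1 left out and 0 under each single omission, and the called gene was *Abo* each time. The libraries share replicate numbers, so the number was also fitted as a block, which gave 1464 called genes (7.25%) and 1 of the 40 (*Abo*, adjusted p = 0.0071), and called *Galm* (0.018) and *Gfpt1* (4.4e-05). *Gfpt1* also passed without both libraries numbered 1 (0.041), and over its alternatives its adjusted p ran up to 0.82. The deviations of same-numbered libraries correlated at 0.53, 0.14, 0.04 and 0.20 for numbers 1 to 4. The mean between different numbers was −0.068. In 4 of the 8 libraries the best match in the other genotype had the same number. The labels state no pairing. *Mgat2* passed with DESeq2 (adjusted p = 0.024, 0.063 to 0.82 otherwise). Signs turned where the change was near 0. *B3gnt2* had −0.019 without both libraries numbered 1, *St8sia1* −0.071 and −0.082 in TPM with pseudocounts of 1 and 0.1, and with single omissions *B4galt1* ran from −0.037 to 0.16, *B4galt3* from −0.11 to 0.042 and *B3gnt2* from −0.0027 to 0.12. The causes were not tested. Counts under 100 per library limit *Abo*, *B3gnt4* and *Galm*, and 6 genes were too low to test.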
